A study of Mus musculus with 8 samples.

Results

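The 36 genes described here encode enzymes of pyruvate entry and the tricarboxylic acid (TCA) cycle (21 genes) and of branched-chain amino acid breakdown (15 genes). They were chosen by name from the pathway, with earlier results of these data known. They were looked up by gene symbol among the 31252 genes of the deposited expression tables. All 36 were found, and all 36 were among the 12137 genes that reached a mean CPM (counts scaled to a common library size) of 1 over the libraries. The cells were 3T3-L1, mouse fibroblasts kept as a line, which become fat cells once a mixture of hormones is added. The shMaf1 cells carried an shRNA against Maf1, a repressor of RNA polymerase III. The shBrf1 cells carried an shRNA against Brf1, a subunit of the initiation factor that this polymerase needs at tRNA genes. The ML cells were given ML-60218, a small molecule that inhibits RNA polymerase III, and the labels give neither its dose nor its vehicle nor whether those cells also carried a vector. The control cells carried the vector with no shRNA. Each of the 4 conditions was sampled at day 2, after 2 days in insulin (10 µg/mL), dexamethasone (2 µM), IBMX (0.5 mM) and ascorbic acid (25 µg/mL), and at day 0, before this cocktail and 2 days after the cells had become confluent. All cells grew in high-glucose DMEM with 10% FBS.

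With 1 library in each of the 8 groups, no difference below has a replicate check, and conditions could not be tested against each other. The 3 comparisons with control on a day share 1 control library. The libraries held 29035505 to 31759559 estimated gene counts. Maf1 was at 11.96 and 13.1 CPM in the shMaf1 libraries of day 2 and day 0, and at 54.9 to 61.8 CPM in the other 6. Brf1 was at 13.4 and 19.0 CPM in the shBrf1 libraries of day 2 and day 0, and at 25.3 to 33.2 CPM in the other 6. The shBrf1 library of day 2 stood apart in quality: 7.8% of its reads were ribosomal, against 0.46% to 0.93% in the other 7, and its 3′ bias score was 0.36, against 0.06 to 0.22. That score was 0.22 in ML and 0.15 in control cells of day 2. Levels are CPM after TMM scaling, which takes most genes to have the same level in all libraries. Whether they do was not tested. In shBrf1 cells, 25.8% of the 12137 genes were 1.5-fold or more higher and 27.2% were lower at day 2 than at day 0 with this scaling. Intervals are exact 95% intervals of a fold difference and cover counting error only. A gene is called higher or lower where the ratio, with 0.5 CPM added to both levels, is 1.5-fold or more and the higher level is at least 1 CPM.

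The TCA cycle takes acetyl groups from pyruvate, fatty acids and amino acids and oxidises them in mitochondria. In a cell that makes fat, citrate also leaves the cycle as the source of cytosolic acetyl-CoA, and pyruvate carboxylase replaces the oxaloacetate that is drawn off. Leucine, isoleucine and valine are first transaminated by the BCAT enzymes, then oxidatively decarboxylated by the branched-chain ketoacid dehydrogenase complex, and their carbon ends as acetyl-CoA, acetoacetate or propionyl-CoA. Differentiating adipocytes are known to take up this breakdown as a carbon source.

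Promoter windows of RefSeq (build GRCm38.p6, 250 bases before to 50 after the annotated start) were available for 33 of the 36 genes. A pair of short motifs was searched on both strands. The first was TGACGTCA, the cAMP response element, since IBMX raises cAMP. The second was CGCNTGCG, the inner part of the site of NRF1, a factor that acts on nuclear genes for mitochondrial proteins. A copy of one motif cannot overlap a copy of the other, but copies of CGCNTGCG can overlap by their outer letters, and one with A in its open place reads the same on both strands. The cAMP response element was in windows of 2 members, Ogdh and Mdh2, or 6.06% of the 33. It was in windows of 3.71% of the 8847 genes with a window and a mean of 1 CPM, and of 2.03% of all 27025 genes with a window. The NRF1 motif was in windows of 7 members, Pdha1, Pdhb, Dld, Idh3g, Ogdh, Sucla2 and Pccb, or 21.2% of the 33. It was in windows of 20.4% of those 8847 genes and of 9.22% of those 27025 genes. Both shares are a description, and a match is not a site. The 5 windows are shown 5′ to 3′ because these genes span the range of behaviour below, from Mdh2 and Ogdh, called higher at day 2 than at day 0 in all 4 conditions, over Dld, called in 3 of them, and Sucla2, called in 1, to Pccb, called in none, with TMM scaling. In capitals is the cAMP response element in Mdh2 and Ogdh and the NRF1 motif in Dld, Sucla2 and Pccb. Ogdh has 6 annotated windows, of which 3 hold the same copy of the cAMP response element, and the first of the 3 is shown.
Mdh2 (chr5:135778399-135778698, plus strand): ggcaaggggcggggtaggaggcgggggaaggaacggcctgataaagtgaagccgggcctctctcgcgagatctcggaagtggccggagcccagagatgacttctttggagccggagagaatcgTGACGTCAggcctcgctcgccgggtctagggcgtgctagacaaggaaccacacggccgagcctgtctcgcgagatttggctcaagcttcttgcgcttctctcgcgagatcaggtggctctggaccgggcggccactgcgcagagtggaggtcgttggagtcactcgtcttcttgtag
Ogdh (chr11:6291347-6291646, plus strand): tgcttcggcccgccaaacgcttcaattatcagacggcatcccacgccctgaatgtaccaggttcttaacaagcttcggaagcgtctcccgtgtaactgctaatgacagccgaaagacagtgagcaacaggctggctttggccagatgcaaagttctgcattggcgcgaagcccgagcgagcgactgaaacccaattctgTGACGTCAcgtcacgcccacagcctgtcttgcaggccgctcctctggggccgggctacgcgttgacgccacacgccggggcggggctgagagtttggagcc
Dld (chr12:31351422-31351721, minus strand): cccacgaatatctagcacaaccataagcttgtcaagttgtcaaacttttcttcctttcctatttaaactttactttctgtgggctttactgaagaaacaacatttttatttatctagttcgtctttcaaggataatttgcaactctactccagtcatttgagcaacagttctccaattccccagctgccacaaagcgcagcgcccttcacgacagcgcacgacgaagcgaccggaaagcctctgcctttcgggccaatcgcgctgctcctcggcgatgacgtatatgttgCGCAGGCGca
Sucla2 (chr14:73552536-73552835, plus strand): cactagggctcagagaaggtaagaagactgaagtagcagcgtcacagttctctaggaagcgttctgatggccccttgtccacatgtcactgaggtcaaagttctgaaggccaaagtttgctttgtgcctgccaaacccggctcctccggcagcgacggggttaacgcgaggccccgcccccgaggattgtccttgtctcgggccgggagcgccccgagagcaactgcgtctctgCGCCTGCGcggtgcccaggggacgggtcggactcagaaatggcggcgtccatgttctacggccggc
Pccb (chr9:101034835-101035134, minus strand): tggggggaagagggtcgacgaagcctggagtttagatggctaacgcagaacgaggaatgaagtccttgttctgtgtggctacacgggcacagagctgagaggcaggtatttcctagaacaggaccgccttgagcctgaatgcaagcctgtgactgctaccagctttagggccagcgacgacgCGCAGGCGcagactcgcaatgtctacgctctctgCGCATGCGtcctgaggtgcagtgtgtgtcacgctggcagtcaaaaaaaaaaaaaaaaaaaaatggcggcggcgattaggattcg
The motif began 127 bases before the start in Mdh2, 51 before it in this window of Ogdh, 16 before it in Sucla2, 68 and 34 before it in Pccb and 40 after it in Dld.

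At day 2 the members stood apart between the conditions with TMM scaling. Over the 8 libraries, the highest level was in shBrf1 cells of day 2 for 26 of the 36 genes and in ML cells of day 2 for 5. It was in shMaf1 cells for 1 at day 2 and 1 at day 0, and in control cells of day 2 for 3. The shares of the 12137 genes highest in each library are not given here, so these counts have no background beside them. With TMM scaling, the order shBrf1, ML, control, shMaf1, from high to low, held for 20 of the 36 members at day 2 (55.6%), against 17.6% of the 12137 genes. Against control at day 2, 17 members were higher and 1 was lower in shBrf1 cells, where 10.7% of the 12137 genes were higher and 14.7% were lower. In ML cells 3 members were higher and 1 was lower, against 4.45% and 8.38% of those genes. In shMaf1 cells no member was higher and 6 were lower, against 10.2% and 9.02%. At 2-fold, 0 were higher and 2 lower in shMaf1 (4.14% and 3.31% of the 12137 genes), 4 higher and 0 lower in shBrf1 (2.54% and 5.31%) and 1 higher and 0 lower in ML cells (1.47% and 2.96%). The median log2 ratio of the members to control was -0.19 in shMaf1, 0.51 in shBrf1 and 0.30 in ML cells, while the median of the 12137 genes was within 0.01 of 0. These directions are relative to the other genes: scaled to the ERCC spike-ins, RNAs from outside the cells that are added to a sample, the median of the 12137 genes was 0.15 in shMaf1, -0.65 in shBrf1 and -0.58 in ML cells, and that of the members was -0.03 in shMaf1, turning to -0.17 in shBrf1 and -0.30 in ML cells. The labels do not say how the spike-ins were added, so which scaling is right cannot be told here. Reads on them numbered 300256 in shMaf1, 474958 in shBrf1, 455966 in ML and 337922 in control cells of day 2, and 236550 to 259854 at day 0. With spike-in scaling, Idh3a was the 1 member still called higher in shBrf1 cells, at a log2 ratio of 0.85, and none was in ML cells, while all 6 members lower in shMaf1 cells kept their call. Idh2 kept its lower call in shBrf1 (-1.56) and ML cells (-1.28), but could not lose it, since this scaling lowers all ratios there. With it, 8 members were lower in shBrf1 and 6 in ML cells, and the background shares are not given here. Of the 21 genes of pyruvate entry and the cycle, 11 in shBrf1 and 2 in ML cells were then above control. Of the 15 branched-chain genes, 5 in shBrf1 and 1 in ML cells were. The order given above thus did not hold for most members with spike-in scaling.

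**Figure D1:**
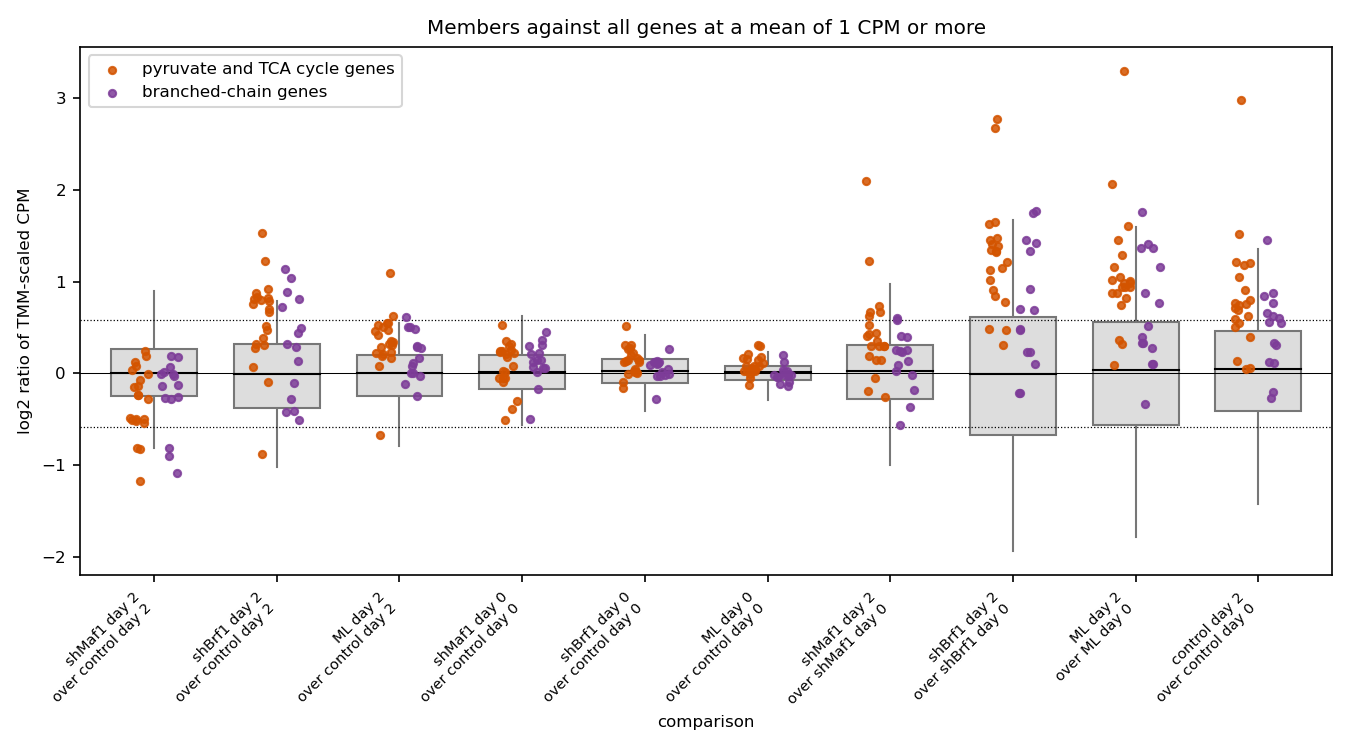
Log2 ratio of TMM-scaled CPM of the 36 members (points) in 10 comparisons of 1 library with 1 library, beside all 12137 genes (box from the 25th to the 75th percentile, whiskers from the 5th to the 95th, line at the median). Dotted lines mark 1.5-fold. In shBrf1 over control at day 2 most cycle genes lie above the box, with Idh2 alone below -0.58; scaled to spike-ins, the median of all genes there is -0.65 and that of the members -0.17.

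At day 0 the same cells differed little in these genes. No member was 1.5-fold higher or lower than in control cells in shMaf1 (5.62% and 4.46% of the 12137 genes), shBrf1 (2.16% and 2.18%) or ML cells (0.404% and 0.717%). At 2-fold no member passed either. There 2.3% of those genes were higher and 0.956% lower in shMaf1 cells, 0.371% higher and 0.42% lower in shBrf1 cells, and 0.0412% higher and 0.0742% lower in ML cells. The median log2 ratio to control was 0.15 in shMaf1, 0.12 in shBrf1 and 0.02 in ML cells, and with spike-in scaling it was -0.03 in shMaf1, -0.01 in shBrf1 and 0.04 in ML cells. The largest ratios of day 0 stood at 0.52 (Mdh1) and -0.50 (Aldh6a1 and Sucla2) in shMaf1 cells, and at 0.52 (Idh1) in shBrf1 cells.

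Markers of adipocytes and of fibroblasts and preadipocytes differed between the same libraries. All 7 adipocyte markers (Adipoq, Fabp4, Plin1, Cidec, Lipe, Cd36, Pparg) were past 1.5-fold higher in shBrf1 than in control cells at day 2 (10.7% of the 12137 genes). In ML cells 6 of 7 were (4.45%), and 6 of 7 of these markers were past 1.5-fold lower in shMaf1 cells (9.02%). Their summed level at day 2 was 131 CPM in shMaf1, 1834 in shBrf1, 1218 in ML and 385 in control cells, and at day 0 it was 29.7 to 62.6 CPM. The summed level of 7 fibroblast and preadipocyte markers (Dlk1, Pdgfra, Pdgfrb, Col1a1, Col1a2, Thy1, Vim) at day 2 was 15834 CPM in shMaf1, 7367 in shBrf1, 7104 in ML and 10889 in control cells, and it was 19125 to 23386 CPM at day 0. Col1a1 and Col1a2 were its largest parts, at 5080 and 10919 CPM in control cells of day 0. The log2 ratio of day 2 to day 0, whatever its size, was above 0 for 4 of the 7 in shMaf1, 2 in shBrf1, 1 in ML and 3 in control cells. Of these 7, 3 (Dlk1, Col1a1 and Col1a2) were past 1.5-fold higher (10.2% of the 12137 genes) and Thy1 was 3.76-fold lower in shMaf1 than in control cells at day 2, with a median log2 ratio of 0.04 over the list. In shBrf1 cells 5 of the 7 were past 1.5-fold lower (14.7% of the 12137 genes) and in ML cells 4 were (8.38%), and none was higher. No marker of either list was at 0 in all libraries. Macrophage, endothelial and epithelial markers summed to at most 2.24 CPM in any library, with Epcam at 0, and skeletal muscle markers summed to 2.34 to 8.24 CPM, with Myod1 and Ckm at 0. The part of these markers' cell types, and of the 3′ bias, in the members' levels was not tested, and in bulk RNA fewer cells of a type and less RNA per cell cannot be told apart.

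Pyruvate carboxylase (Pcx, mm10 chr19:4510472-4621752), which makes oxaloacetate from pyruvate, spanned the widest range of the 36 genes, 15.02-fold between its lowest and highest library. Its level at day 2 was 226 CPM in shMaf1, 536 in shBrf1, 789 in ML and 512 in control cells. At day 0 the level was 52.5 CPM in shMaf1, 78.2 in shBrf1, 79.8 in ML and 64.6 in control cells. All 4 libraries of day 2 were above all 4 of day 0. The day 2 level was 4.3-fold higher (interval 4.08 to 4.54) than at day 0 in shMaf1 cells, 6.85-fold higher (interval 6.57 to 7.14) in shBrf1 cells, 9.88-fold higher (interval 9.49 to 10.3) in ML cells and 7.92-fold higher (interval 7.58 to 8.28) in control cells. Against control at day 2 it was 2.26-fold lower (interval 2.2 to 2.33) in shMaf1 cells and 1.54-fold higher (interval 1.51 to 1.57) in ML cells. Its levels in shBrf1 and control cells differed by a log2 ratio of 0.07.

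**Figure D2:**
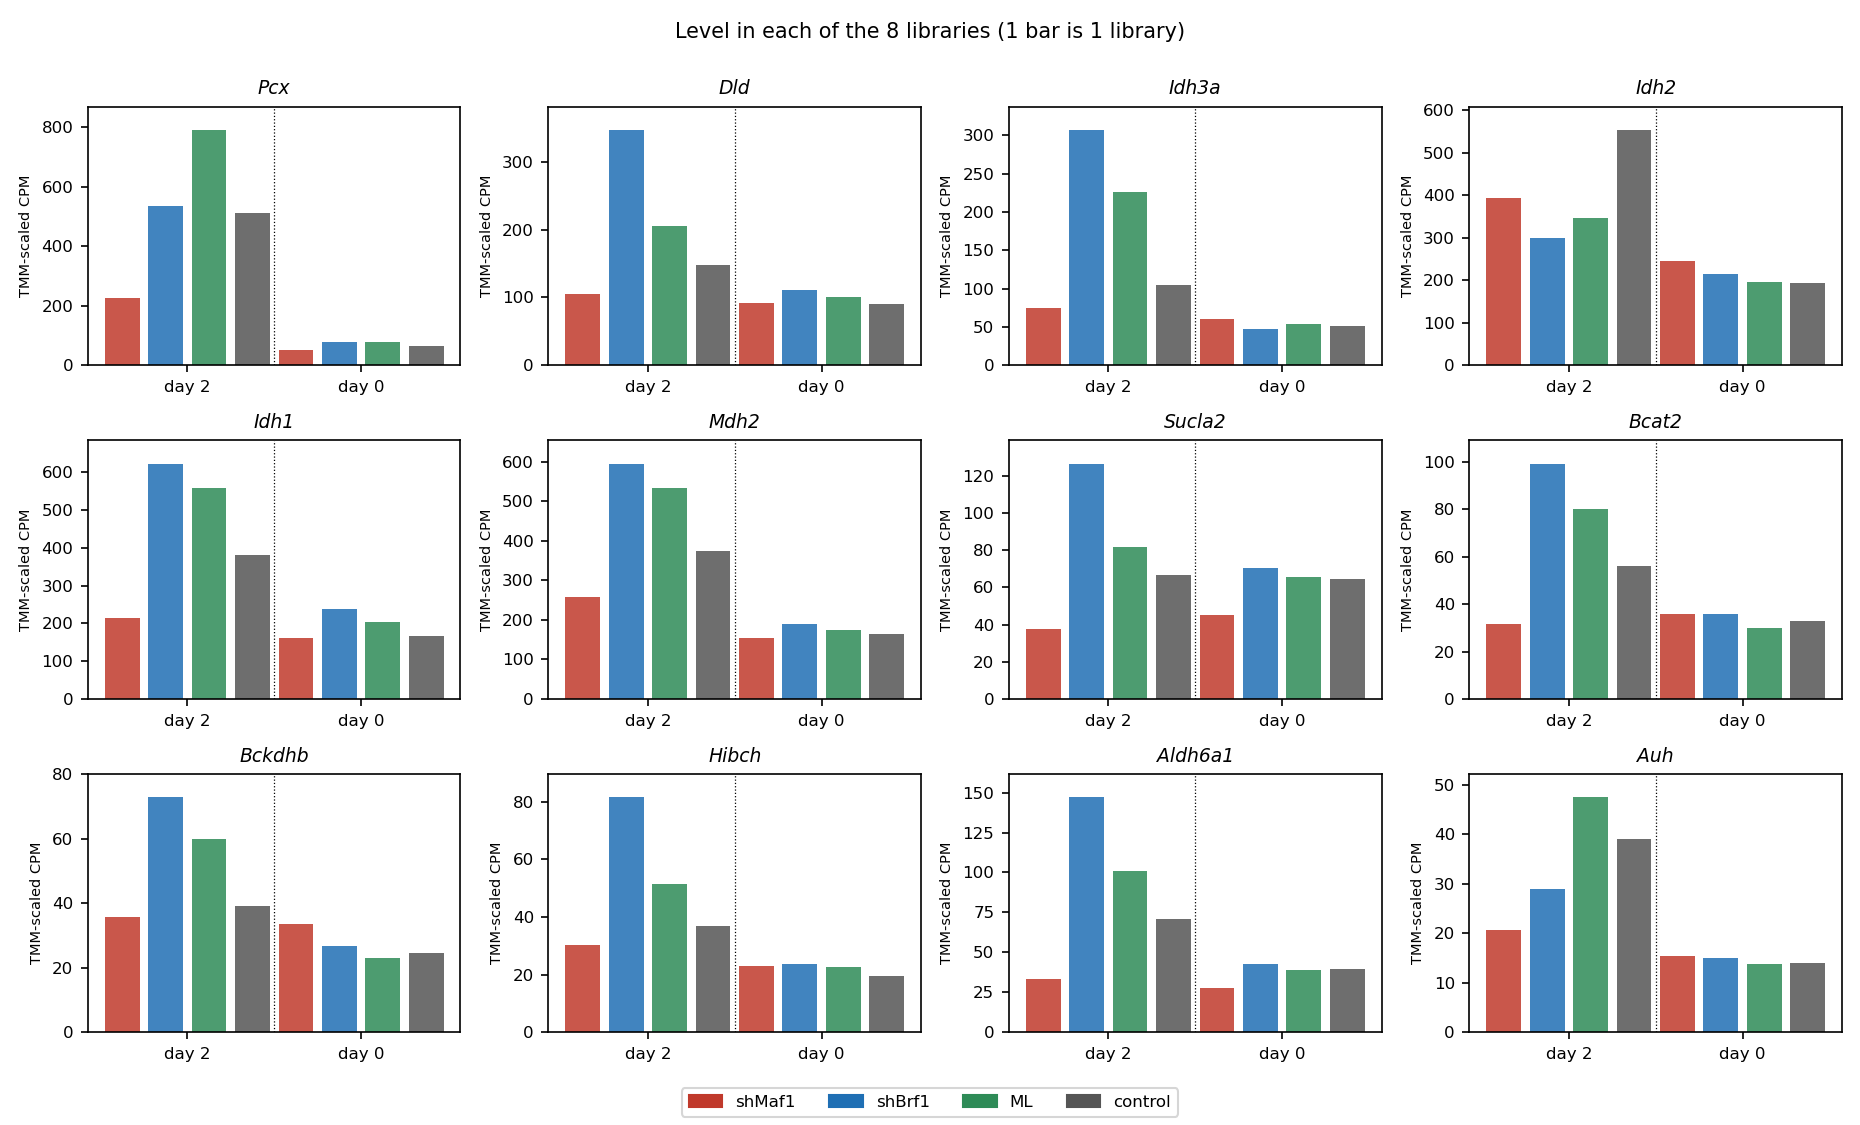
TMM-scaled CPM (y axis, from 0) of 12 members in each library, with day 2 left of day 0 and shMaf1, shBrf1, ML and control from left to right within a day. Each bar is 1 library, without error. Pcx is highest in the ML library of day 2 (789 CPM), Idh3a in shBrf1 (306 CPM) and Idh2 in control (552 CPM).

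The pyruvate dehydrogenase complex, which turns pyruvate into acetyl-CoA, was higher in shBrf1 than in control cells at day 2 for 4 of its 5 genes (10.7% of the 12137 genes). Dld (mm10 chr12:31331562-31351471), the E3 subunit that this complex shares with the 2-oxoglutarate and branched-chain ketoacid dehydrogenases, was at 104 CPM in shMaf1, 346 in shBrf1, 205 in ML and 148 in control cells at day 2. It was at 91.7 CPM in shMaf1, 111 in shBrf1, 101 in ML and 90.00 in control cells at day 0. In shBrf1 cells of day 2 it was 2.34-fold higher (interval 2.26 to 2.43) than in control cells, which placed it second among the members. Pdhb, the E1 beta subunit, was at 63.02 CPM in shMaf1, 156 in shBrf1, 132 in ML and 89.9 in control cells at day 2 and at 51.2 to 58.97 CPM at day 0. Dlat, the E2 subunit, was at 67.98 CPM in shMaf1, 141 in shBrf1, 114 in ML and 82.9 in control cells at day 2 and at 52.99 to 62.2 CPM at day 0. With TMM scaling, both followed the order shBrf1, ML, control, shMaf1. Pdhx, which holds E3 in the complex, was at 39.3 CPM in shMaf1, 74.8 in shBrf1, 54.98 in ML and 43.2 in control cells at day 2 and at 26.99 to 32.01 CPM at day 0. Pdha1, the E1 alpha subunit that carries the regulatory phosphorylation sites, was at 348 CPM in shMaf1, 457 in shBrf1, 404 in ML and 349.7 in control cells at day 2 and at 205 to 242 CPM at day 0. It was the one gene of the complex that stayed under 1.5-fold in shBrf1 over control, at a log2 ratio of 0.39. In ML cells no gene of the complex passed 1.5-fold against control, with log2 ratios of 0.21 to 0.55, and in shMaf1 cells none did, at -0.51 to -0.01.

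The isocitrate dehydrogenases were split. Idh3a (mm10 chr9:54586511-54604662), the catalytic subunit of the NAD-dependent mitochondrial enzyme of the cycle, was the highest member in shBrf1 and in ML over control at day 2. Its level at day 2 was 74.6 CPM in shMaf1, 306 in shBrf1, 226 in ML and 105 in control cells, and at day 0 it was 60.7 CPM in shMaf1, 47.6 in shBrf1, 53.7 in ML and 50.8 in control cells. At day 2 it was 2.91-fold higher (interval 2.79 to 3.03) in shBrf1 and 2.14-fold higher (interval 2.05 to 2.24) in ML than in control cells. Idh3b and Idh3g, the other subunits of the same enzyme, moved less. Idh3b was at 107 CPM in shMaf1, 156 in shBrf1, 119 in ML and 112 in control cells at day 2 and at 108 to 122 CPM at day 0. Idh3g was at 85.2 CPM in shMaf1, 97.3 in shBrf1, 94.7 in ML and 80.3 in control cells at day 2 and at 51.5 to 64.1 CPM at day 0. Per kilobase of transcript, the ratio of Idh3a to Idh3b at day 2 was 0.470 in shMaf1, 1.32 in shBrf1, 1.28 in ML and 0.631 in control cells, and it was 0.287 to 0.335 at day 0. Such a ratio within a library does not depend on the scaling between libraries. It does compare transcripts of different length, 2403 bases for Idh3a and 1616 for Idh3b. The part of the 3′ bias, which was highest in the shBrf1 and ML libraries of day 2, was not tested.

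Idh2 (mm10 chr7:80094847-80115350), the NADP-dependent mitochondrial form, went the other way and was the lowest member in shBrf1 and in ML over control at day 2. Its level at day 2 was 394 CPM in shMaf1, 300.2 in shBrf1, 347 in ML and 552 in control cells, and at day 0 it was 247 CPM in shMaf1, 216 in shBrf1, 196 in ML and 193 in control cells. The control library of day 2 was the highest. At day 2 Idh2 was 1.84-fold lower (interval 1.79 to 1.89) in shBrf1 and 1.59-fold lower (interval 1.55 to 1.63) in ML than in control cells. Day 2 over day 0, it was 1.6-fold higher (interval 1.55 to 1.64) in shMaf1 cells, 1.39-fold higher (interval 1.35 to 1.44), under the size rule, in shBrf1 cells, 1.77-fold higher (interval 1.72 to 1.83) in ML cells and 2.86-fold higher (interval 2.78 to 2.95) in control cells. Idh1 (mm10 chr1:65158616-65186479), the cytosolic NADP-dependent form, was at 216 CPM in shMaf1, 622 in shBrf1, 559 in ML and 383 in control cells at day 2 and at 160.1 CPM in shMaf1, 237 in shBrf1, 203 in ML and 166 in control cells at day 0. It was 1.63-fold higher (interval 1.59 to 1.67) in shBrf1 and 1.77-fold lower (interval 1.72 to 1.83) in shMaf1 than in control cells. The ratio of Idh1 to Idh2 per kilobase at day 2 was 0.417 in shMaf1, 1.58 in shBrf1, 1.23 in ML and 0.527 in control cells, and it was 0.494 to 0.836 at day 0. Only in the shBrf1 and ML libraries of day 2, of the 8, was it above 1. Idh2 was also the most abundant member per kilobase in control cells of day 2, at 317 CPM per kb, followed by Mdh2 at 257 and Idh1 at 167, and the least abundant was Dbt at 5.99.

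**Figure D3:**
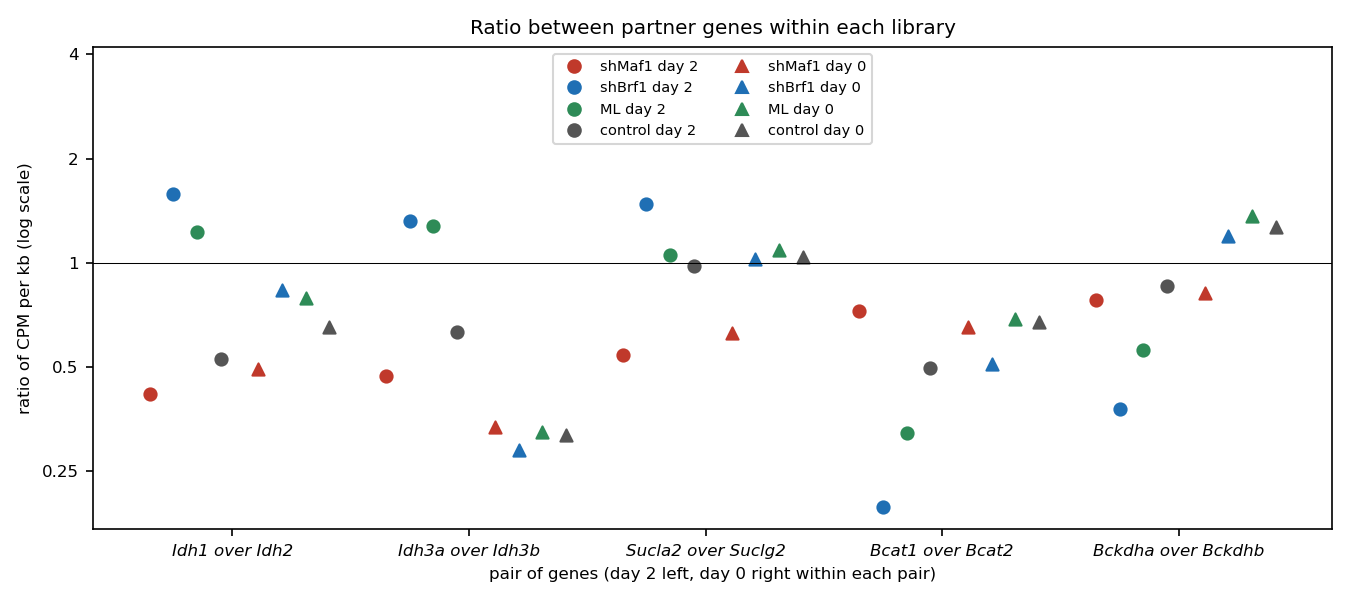
Ratio of CPM per kilobase between partner genes within each library, on a log scale; circles are day 2, triangles day 0, and each point is 1 library without error. Idh1 over Idh2 is 1.58 in shBrf1, 1.23 in ML and 0.527 in control cells at day 2, and Bcat1 over Bcat2 is 0.197, 0.323 and 0.496 in those libraries. No scaling between libraries enters these ratios, but the genes of a pair differ in transcript length. The 3′ bias score was 0.08 in shMaf1, 0.36 in shBrf1, 0.22 in ML and 0.15 in control cells of day 2, and 0.06 to 0.11 at day 0. Its part in these ratios was not tested.

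At the entry to the cycle, citrate synthase (Cs) had log2 ratios to control of 0.19 to 0.35 in the 3 conditions at day 2, none past 1.5-fold. Aco1, the cytosolic aconitase that also acts as iron regulatory protein, was at 113 CPM in shMaf1, 239 in shBrf1, 166 in ML and 133 in control cells at day 2 and at 70.8 to 85.4 CPM at day 0. It was 1.79-fold higher (interval 1.72 to 1.86) in shBrf1 than in control cells of day 2.

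From 2-oxoglutarate to oxaloacetate, 5 of 8 genes (Suclg1, Sucla2, Fh1, Mdh1 and Mdh2) were higher in shBrf1 than in control cells at day 2, and none was lower. Of the 12137 genes, 10.7% were higher and 14.7% lower there. Ogdh (mm10 chr11:6291597-6359094), the E1 subunit of the 2-oxoglutarate dehydrogenase, behaved differently: its level at day 2 was 225 CPM in shMaf1, 178 in shBrf1, 223 in ML and 191 in control cells, and at day 0 it was 96.1 CPM in shMaf1, 81.6 in shBrf1, 90.7 in ML and 82.2 in control cells. The conditions of 1 day lay close together, with log2 ratios to control of -0.10 to 0.24, while day 2 was 2.34-fold higher (interval 2.25 to 2.45) than day 0 in shMaf1, 2.18-fold higher (interval 2.08 to 2.29) in shBrf1, 2.45-fold higher (interval 2.35 to 2.56) in ML and 2.32-fold higher (interval 2.22 to 2.43) in control cells. Dlst, the E2 subunit, was at 117 CPM in shMaf1, 241 in shBrf1, 188 in ML and 168 in control cells at day 2 and at 73.4 CPM in shMaf1, 119 in shBrf1, 97.6 in ML and 96.2 in control cells at day 0. It was thus lowest in shMaf1 cells on both days, with log2 ratios to control of -0.51 at day 2 and -0.39 at day 0.

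Succinyl-CoA ligase has a shared alpha subunit, Suclg1, and a beta subunit that sets the nucleotide, Sucla2 for ATP and Suclg2 for GTP. Sucla2 (mm10 chr14:73552786-73596142) was at 37.8 CPM in shMaf1, 126 in shBrf1, 81.8 in ML and 66.7 in control cells at day 2 and at 45.2 CPM in shMaf1, 70.2 in shBrf1, 65.3 in ML and 64.4 in control cells at day 0. At day 2 it was 1.76-fold lower (interval 1.64 to 1.9) in shMaf1 and 1.89-fold higher (interval 1.79 to 2.0) in shBrf1 than in control cells. Suclg2 stayed between 90.9 and 129 CPM in the 8 libraries. The ratio of Sucla2 to Suclg2 per kilobase was 0.541 in shMaf1, 1.48 in shBrf1, 1.05 in ML and 0.979 in control cells of day 2. It was 0.626 in shMaf1 cells of day 0, against 1.02 to 1.09 in the other libraries of that day. Suclg1 was at 91.5 CPM in shMaf1, 191 in shBrf1, 144 in ML and 107 in control cells at day 2 and at 81.7 to 85.4 CPM at day 0. Fh1, the fumarase, was at 76.7 CPM in shMaf1, 156 in shBrf1, 107 in ML and 85.2 in control cells at day 2 and at 52.5 to 62.5 CPM at day 0. Both were highest in shBrf1 cells of day 2, Suclg1 at 1.78-fold higher (interval 1.7 to 1.86) and Fh1 at 1.83-fold higher (interval 1.75 to 1.93) than in control.

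Mdh2 (mm10 chr5:135778649-135790386), the mitochondrial malate dehydrogenase, was at 258 CPM in shMaf1, 594 in shBrf1, 532 in ML and 375 in control cells at day 2. At day 0 it was at 154 CPM in shMaf1, 189 in shBrf1, 174 in ML and 165 in control cells. In shBrf1 cells of day 2 it was 1.58-fold higher (interval 1.55 to 1.62) than in control cells, a call that spike-in scaling ends, at a log2 ratio of -0.02. Mdh1, the cytosolic form, was at 193 CPM in shMaf1, 309 in shBrf1, 255 in ML and 177 in control cells at day 2 and at 174 CPM in shMaf1, 123 in shBrf1, 123 in ML and 121 in control cells at day 0. Its shMaf1 library was the highest of day 0, at a log2 ratio of 0.52 to control, whereas the Mdh2 ratio there was -0.10 on the same scale.

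**Figure D4:**
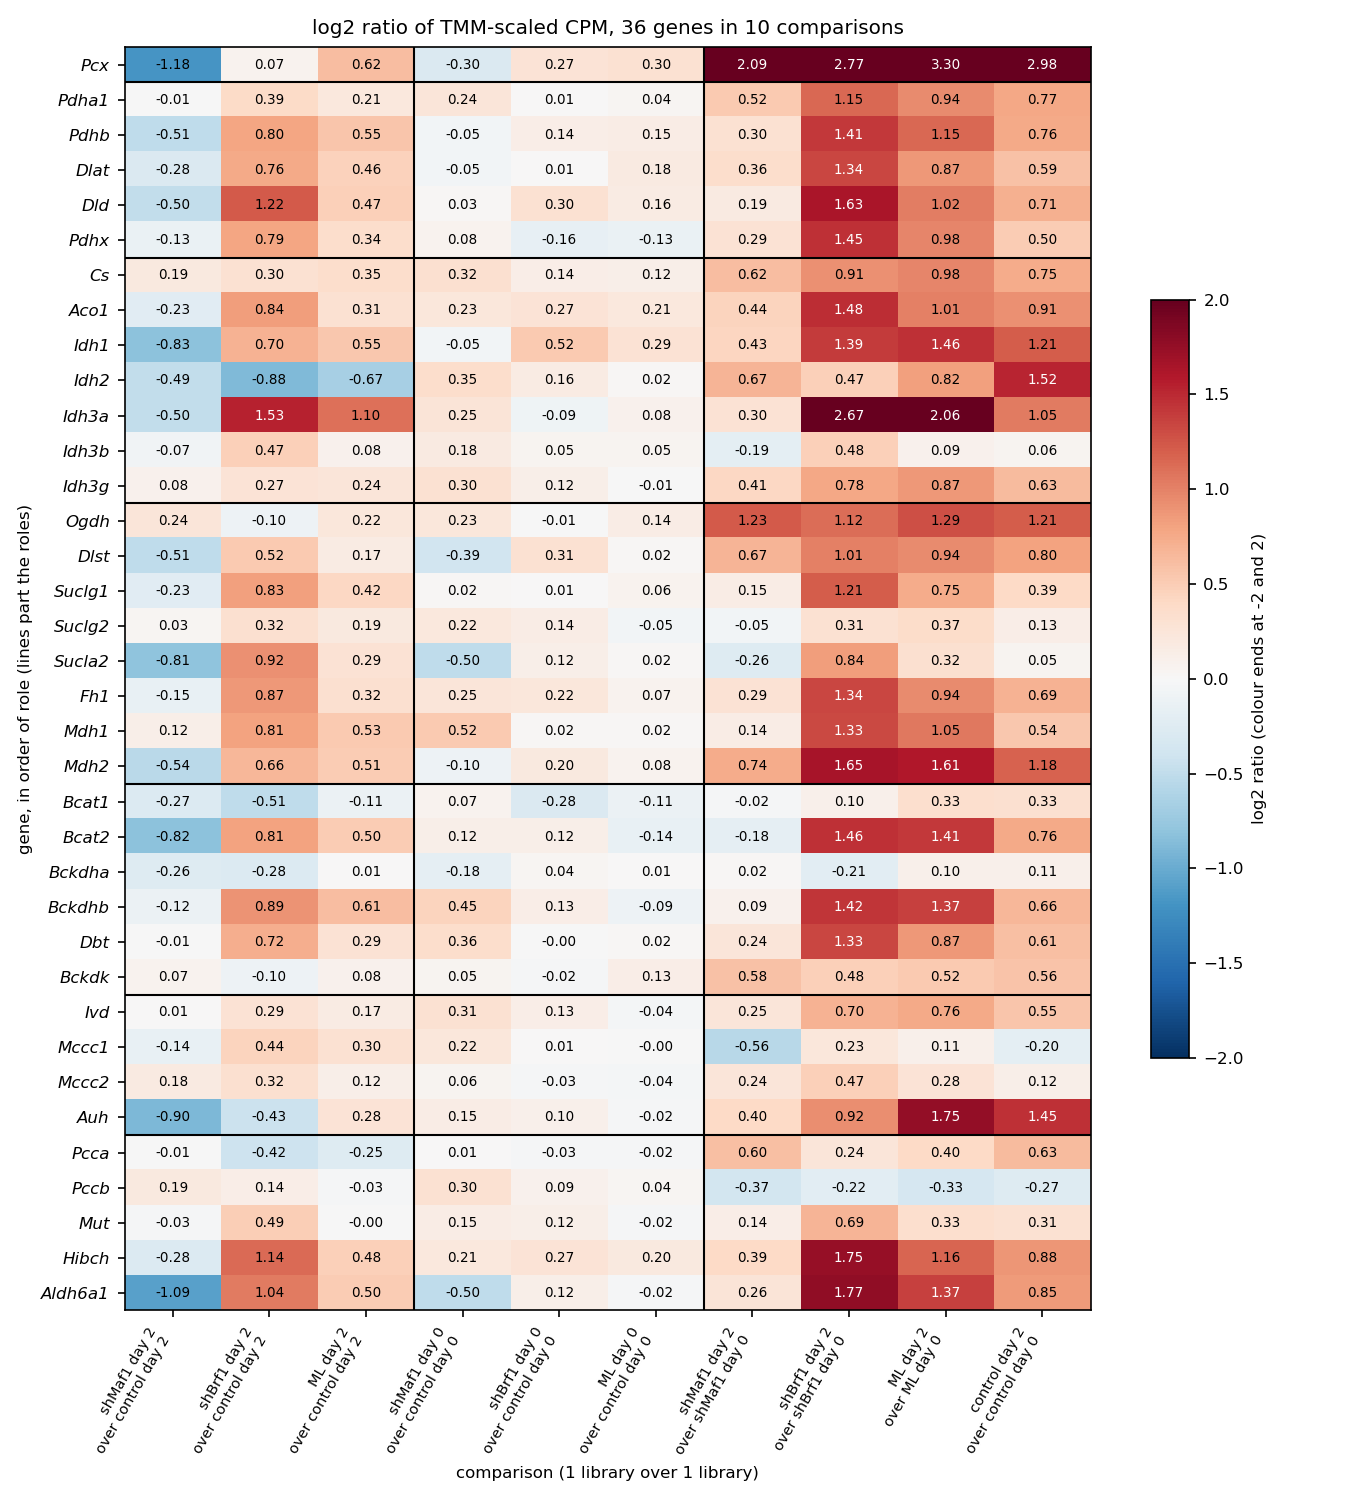
Log2 ratio of TMM-scaled CPM for each member (rows, parted by role) in the 10 comparisons (columns, 1 library over 1 library); numbers in the cells are the ratios and the colours end at -2 and 2. Ratios over control at day 0 lie between -0.50 and 0.52, and those of day 2 over day 0 reach 3.30 (Pcx in ML cells). With spike-in scaling the day 2 over day 0 ratios are lower by the shift of all genes given in the text.

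In branched-chain breakdown, 5 of the 15 genes (Bcat2, Bckdhb, Dbt, Hibch and Aldh6a1) were higher in shBrf1 than in control cells at day 2, where 10.7% of the 12137 genes were. The median log2 ratio of the 15 genes was 0.32, turning to -0.35 with spike-in scaling. For the 21 genes of pyruvate entry and the cycle it was 0.70, and 0.02 with spike-in scaling. The transaminases differed. Bcat2 (mm10 chr7:45570153-45589710), the mitochondrial form, was at 31.8 CPM in shMaf1, 99.2 in shBrf1, 79.97 in ML and 56.3 in control cells at day 2 and at 35.96 CPM in shMaf1, 35.8 in shBrf1, 29.8 in ML and 32.95 in control cells at day 0. It was 1.76-fold higher (interval 1.66 to 1.87) in shBrf1 and 1.77-fold lower (interval 1.64 to 1.92) in shMaf1 than in control cells of day 2. Bcat1, the cytosolic form, was at 67.7 CPM in shMaf1, 57.2 in shBrf1, 75.7 in ML and 81.9 in control cells at day 2 and at 53.5 to 68.6 CPM at day 0, and it was the lowest branched-chain gene in shBrf1 over control, at a log2 ratio of -0.51. Per kilobase, Bcat1 over Bcat2 at day 2 was 0.728 in shMaf1, 0.197 in shBrf1, 0.323 in ML and 0.496 in control cells. That ratio was 0.510 to 0.689 at day 0.

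The branched-chain ketoacid dehydrogenase has E1 alpha (Bckdha), E1 beta (Bckdhb) and E2 (Dbt) subunits beside Dld, and Bckdk is the kinase that switches it off. Bckdhb (mm10 chr9:83925152-84124240) was at 35.8 CPM in shMaf1, 72.8 in shBrf1, 60.01 in ML and 39.05 in control cells at day 2 and at 33.6 CPM in shMaf1, 26.8 in shBrf1, 22.9 in ML and 24.5 in control cells at day 0. It was 1.87-fold higher (interval 1.73 to 2.01) in shBrf1 and 1.54-fold higher (interval 1.42 to 1.66) in ML than in control cells of day 2. Bckdha, its partner in the same heterotetramer, stayed between 37.3 and 45.7 CPM in all 8 libraries. Per kilobase, Bckdha over Bckdhb was 0.780 in shMaf1, 0.378 in shBrf1, 0.561 in ML and 0.858 in control cells of day 2. At day 0 it was 0.817 in shMaf1, 1.19 in shBrf1, 1.37 in ML and 1.27 in control cells. Dbt was at 19.6 CPM in shMaf1, 32.9 in shBrf1, 24.3 in ML and 19.8 in control cells at day 2 and at 12.8 to 16.6 CPM at day 0. Bckdk was within a log2 ratio of -0.10 to 0.13 of control in all 6 comparisons, and at 59.3 to 67.5 CPM at day 2, against 42.4 to 46.97 CPM at day 0.

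On the leucine branch, Auh (mm10 chr13:52835110-52929677), the hydratase that follows the carboxylation of methylcrotonyl-CoA, was at 20.6 CPM in shMaf1, 28.9 in shBrf1, 47.4 in ML and 38.98 in control cells at day 2 and at 13.7 to 15.5 CPM at day 0. It was 1.89-fold lower (interval 1.71 to 2.09) in shMaf1 than in control cells of day 2, and the shBrf1 library lay below control as well, at a log2 ratio of -0.43. The genes of the steps before it moved little: Ivd had log2 ratios to control of 0.01 to 0.29 at day 2, and Mccc2, a subunit of the carboxylase, of 0.12 to 0.32. Mccc1, its biotin-carrying partner, was at 28.1 CPM in shMaf1, 42.3 in shBrf1, 38.3 in ML and 31.02 in control cells at day 2 and at 41.7 CPM in shMaf1, 36.04 in shBrf1, 35.6 in ML and 35.7 in control cells at day 0. It was the lowest member of day 2 over day 0 in shMaf1 cells, at a log2 ratio of -0.56.

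On the valine branch, Aldh6a1 (mm10 chr12:84430720-84450950), the methylmalonate semialdehyde dehydrogenase, was at 33.2 CPM in shMaf1, 147 in shBrf1, 101 in ML and 71.2 in control cells at day 2. At day 0 it was at 27.7 CPM in shMaf1, 42.8 in shBrf1, 38.8 in ML and 39.4 in control cells. At day 2 it was 2.15-fold lower (interval 1.99 to 2.32) in shMaf1 and 2.06-fold higher (interval 1.96 to 2.18) in shBrf1 than in control cells, and shMaf1 cells were lowest on both days. Hibch (mm10 chr1:52845046-52920860), the hydrolase that releases hydroxyisobutyrate, was at 30.2 CPM in shMaf1, 81.5 in shBrf1, 51.5 in ML and 36.8 in control cells at day 2 and at 19.7 to 23.9 CPM at day 0. It was 2.22-fold higher (interval 2.06 to 2.39) in shBrf1 than in control cells of day 2. The propionate end moved less. Pcca was at 39.2 CPM in shMaf1, 29.5 in shBrf1, 33.1 in ML and 39.5 in control cells at day 2 and at 24.97 to 25.7 CPM at day 0. Pccb, the other subunit of propionyl-CoA carboxylase, was at 31.2 CPM in shMaf1, 29.99 in shBrf1, 26.6 in ML and 27.2 in control cells at day 2 and at 40.5 CPM in shMaf1, 34.96 in shBrf1, 33.6 in ML and 32.8 in control cells at day 0. Pccb was lower at day 2 than at day 0 in all 4 conditions, with log2 ratios of -0.37 to -0.22, under the size rule. Methylmalonyl-CoA mutase (Mut) had log2 ratios to control of -0.03 in shMaf1 and 0.49 in shBrf1 cells of day 2, and its levels in ML and control cells were both 61.2 CPM.

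Day 2 over day 0, 7 of 36 members were higher in shMaf1 cells, 26 in shBrf1, 25 in ML and 22 in control cells, and no member was lower by 1.5-fold in any of the 4. Of the 12137 genes, 11.6% were higher and 12.3% lower in shMaf1, 25.8% and 27.2% in shBrf1, 24.0% and 24.4% in ML, and 19.3% and 18.5% in control cells. At 2-fold, 2 members were higher in shMaf1 (4.66% of all), 20 in shBrf1 (14.1%), 14 in ML (11.8%) and 7 in control cells (8.86%), and none was lower, where 4.98% of all genes were in shMaf1, 16.8% in shBrf1, 13.9% in ML and 9.17% in control cells. The median log2 ratio of the members was 0.29 in shMaf1, 1.13 in shBrf1, 0.94 in ML and 0.64 in control cells, and with spike-in scaling it turned to -0.04 in shMaf1, -0.09 in shBrf1, -0.35 in ML and -0.02 in control cells, where the median of the 12137 genes was -0.30 in shMaf1, -1.17 in shBrf1, -1.22 in ML and -0.61 in control cells. Pcx kept its call in all 4 conditions under spike-in scaling, at log2 ratios of 1.76 in shMaf1, 1.54 in shBrf1, 2.00 in ML and 2.30 in control cells. Idh3a kept its call in shBrf1 (1.45) and ML cells (0.77), Ogdh in shMaf1 cells (0.89), and Idh2 (0.84) and Auh (0.80) in control cells. Summed over the members, the level was 3822 CPM in shMaf1, 6577 in shBrf1, 5986 in ML and 4814 in control cells of day 2, and 2545 to 2800 CPM at day 0.

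The size of the day 2 over day 0 step differed from gene to gene and from condition to condition. Idh3a was 1.23-fold higher (interval 1.16 to 1.31) in shMaf1 cells, under the size rule, 6.43-fold higher (interval 6.09 to 6.79) in shBrf1, 4.2-fold higher (interval 3.98 to 4.43) in ML and 2.08-fold higher (interval 1.96 to 2.2) in control cells. Mdh2 was 1.67-fold higher in shMaf1, 3.14-fold higher in shBrf1, 3.06-fold higher in ML and 2.27-fold higher in control cells. Auh was 1.33-fold higher, under the size rule, in shMaf1 cells, 1.93-fold higher in shBrf1, 3.46-fold higher in ML and 2.8-fold higher in control cells. Aldh6a1 was 1.2-fold higher, under the size rule, in shMaf1, 3.43-fold higher in shBrf1, 2.6-fold higher in ML and 1.81-fold higher in control cells. Bcat2 had the same split, at 1.13-fold lower in shMaf1, 2.77-fold higher in shBrf1, 2.68-fold higher in ML and 1.71-fold higher in control cells. All these folds are TMM-scaled, and their log2 ratios are lower with spike-in scaling. For the genes of pyruvate entry and the cycle the median log2 ratio was 0.36 in shMaf1, 1.33 in shBrf1, 0.98 in ML and 0.75 in control cells, while with spike-in scaling it was 0.02 in shMaf1 and 0.10 in shBrf1, turned to -0.31 in ML, and was 0.07 in control cells. For the branched-chain genes it was 0.24 in shMaf1, 0.69 in shBrf1, 0.52 in ML and 0.56 in control cells, and turned with spike-in scaling to -0.09 in shMaf1, -0.53 in shBrf1, -0.77 in ML and -0.11 in control cells. The 7 members called higher in shMaf1 cells were Pcx, Ogdh, Mdh2, Idh2, Dlst, Cs and Pcca, and the 7 branched-chain genes called in control cells were Auh, Hibch, Aldh6a1, Bcat2, Bckdhb, Dbt and Pcca.

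Genes next to the members were described from 6 lists with 57 pathway genes in all, scaled by TMM. Against control at day 2, 10.2% of the 12137 genes were higher and 9.02% lower in shMaf1 cells. These shares were 10.7% and 14.7% in shBrf1, and 4.45% and 8.38% in ML cells. In lists this short, a count of 1 or 2 genes can lie near those shares. Of 9 genes of pyruvate entry and its control, 2 were higher and 2 lower in shBrf1 than in control cells at day 2. Those higher were the subunits of the mitochondrial pyruvate carrier: Mpc1 was at 38.2 CPM in shMaf1, 97.1 in shBrf1, 69.7 in ML and 43.4 in control cells at day 2, and Mpc2 at 40.4 CPM in shMaf1, 155 in shBrf1, 113 in ML and 70.9 in control cells. Mpc1 was 2.24-fold higher (interval 2.09 to 2.4) and Mpc2 2.19-fold higher (interval 2.07 to 2.3) in shBrf1 than in control cells, but with spike-in scaling their log2 ratios were 0.47 and 0.44, under the size rule. Those lower were Pdpr, the regulatory subunit of the pyruvate dehydrogenase phosphatase, at 3.4-fold lower (interval 2.64 to 4.42), and Pdp2, a catalytic subunit, at 2.0-fold lower (interval 1.53 to 2.63). The kinases that switch pyruvate dehydrogenase off differed by condition. Pdk1 was at 41.8 CPM in shMaf1, 42.3 in shBrf1, 188 in ML and 46.3 in control cells at day 2 and at 61.2 to 63.9 CPM at day 0, and was 4.05-fold higher (interval 3.82 to 4.3) in ML than in control cells. The ML library of day 2 thus stood alone at a high Pdk1 level. Pdk4 was at 109.9 CPM in shMaf1, 38.5 in shBrf1, 57.5 in ML and 52.9 in control cells at day 2 and at 45.9 CPM in shMaf1, 19.8 in shBrf1, 62.3 in ML and 44.2 in control cells at day 0. It was 2.08-fold higher (interval 1.96 to 2.21) in shMaf1 cells of day 2 and 2.23-fold lower (interval 2.04 to 2.45) in shBrf1 cells of day 0 than in control cells of the same day. In ML cells of day 2, 3 of the 9 (Pdk1, Mpc1 and Mpc2) were higher and Pdp1 was lower, though with spike-in scaling Mpc1 stood at 0.07 and Mpc2 at 0.06 on the log2 scale and lost the call, and in shMaf1 cells Mpc2 was 1.76-fold lower (interval 1.63 to 1.89).

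**Figure D5:**
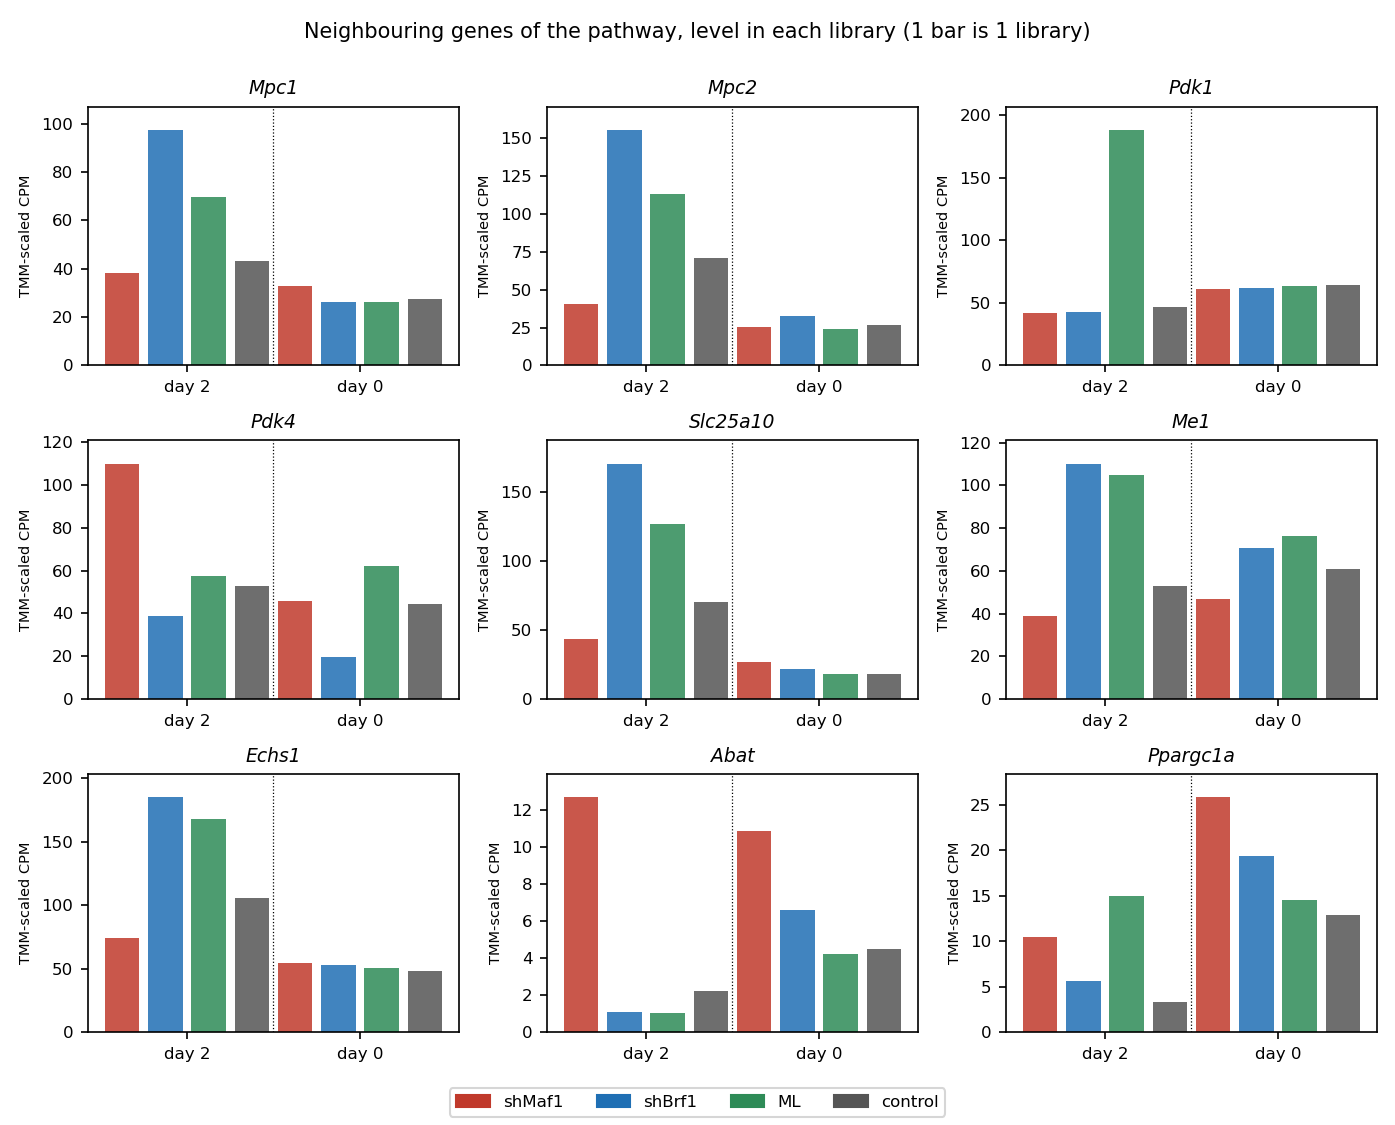
TMM-scaled CPM (y axis, from 0) of 9 neighbouring genes in each library, with day 2 left of day 0 and shMaf1, shBrf1, ML and control from left to right within a day. Each bar is 1 library, without error. Pdk1 is at 188 CPM in ML cells of day 2 and at 41.8 to 63.9 CPM in the other 7 libraries, and Abat is highest in both shMaf1 libraries.

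Of 9 genes of succinate dehydrogenase and other cycle steps, Sdhd, a membrane subunit, was 1.67-fold higher (interval 1.61 to 1.74) in shBrf1 than in control cells of day 2, a call that spike-in scaling ends, at a log2 ratio of 0.06, while Dhtkd1 and Ogdhl, relatives of Ogdh, were lower. In ML cells none of the 9 passed, and in shMaf1 cells Sdhc was 1.63-fold lower (interval 1.54 to 1.71), or -0.54 on the log2 scale with spike-in scaling, under the size rule. Ogdhl was at 11.2 CPM in shMaf1, 5.2 in shBrf1, 8.78 in ML and 8.19 in control cells at day 2 and at 43.5 CPM in shMaf1, 41.2 in shBrf1, 36.02 in ML and 37.3 in control cells at day 0. It was 3.89-fold lower (interval 3.45 to 4.4) at day 2 than at day 0 in shMaf1, 7.92-fold lower (interval 6.63 to 9.52) in shBrf1, 4.1-fold lower (interval 3.56 to 4.75) in ML and 4.56-fold lower (interval 3.97 to 5.25) in control cells. Ogdh was called higher in all 4 conditions with TMM scaling, but with spike-in scaling its log2 ratio turned to -0.10 in shBrf1 and -0.0026 in ML cells, where that of Ogdhl was -4.00 in shBrf1 and -3.22 in ML cells. Among other branched-chain enzymes, Echs1 and Hibadh were higher and Abat was lower in shBrf1 than in control cells of day 2, though with spike-in scaling the Hibadh ratio fell below control and the Echs1 log2 ratio was 0.12, under the size rule. In ML cells Echs1 was higher, a call that spike-in scaling ends at a log2 ratio of 0.06, and Abat was lower, and in shMaf1 cells Abat was higher. Echs1, an enoyl-CoA hydratase of several pathways, was at 74.03 CPM in shMaf1, 185 in shBrf1, 168 in ML and 106 in control cells at day 2. Abat, the GABA transaminase, was at 12.7 CPM in shMaf1, 1.12 in shBrf1, 1.03 in ML and 2.23 in control cells at day 2 and at 10.9 CPM in shMaf1, 6.62 in shBrf1, 4.22 in ML and 4.47 in control cells at day 0. It was 5.69-fold higher (interval 4.37 to 7.51) at day 2 and 2.43-fold higher (interval 2.01 to 2.95) at day 0 in shMaf1 than in control cells.

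Of 13 genes of citrate export, shuttles and glutamine entry, 4 were higher in shBrf1, 3 were higher in ML and 2 were lower in shMaf1 than in control cells of day 2. Of the 12137 genes, 10.7% were higher in shBrf1, 4.45% were higher in ML and 9.02% were lower in shMaf1 cells. Slc25a10, the mitochondrial dicarboxylate carrier, was at 43.7 CPM in shMaf1, 170.4 in shBrf1, 127 in ML and 70.4 in control cells at day 2 and at 17.9 to 27.1 CPM at day 0. Slc25a1, the citrate carrier, was at 80.5 CPM in shMaf1, 210.4 in shBrf1, 193 in ML and 125 in control cells at day 2. Me1, the cytosolic malic enzyme that makes NADPH, was at 38.8 CPM in shMaf1, 110.0 in shBrf1, 105 in ML and 52.7 in control cells at day 2 and was 2.09-fold higher (interval 1.96 to 2.22) in shBrf1 and 2.0-fold higher (interval 1.87 to 2.12) in ML than in control cells. With spike-in scaling the Me1 log2 ratio was 0.38 in both, that of Slc25a1 was 0.07 in shBrf1 and 0.02 in ML cells, and that of Slc25a10 was 0.59 in shBrf1, where it kept its call, and 0.24 in ML cells. The 2 genes lower in shMaf1 cells, Slc25a10 and Slc25a1, stood at -0.52 and -0.47 with that scaling and lost the call. Glud1, the glutamate dehydrogenase, was 1.52-fold higher (interval 1.48 to 1.56) in shBrf1 cells, but its log2 ratio was -0.08 with spike-in scaling. Of 8 genes of biogenesis and control, 3 (Ppargc1a, Ppargc1b and Klf15) were higher in shBrf1 cells of day 2, 2 (Ppargc1a and Klf15) were higher in ML cells, and in shMaf1 cells Ppargc1a was higher and Ppargc1b and Klf15 were lower. With spike-in scaling, Klf15 (0.85) kept its call in shBrf1 cells, while Ppargc1a (0.07) and Ppargc1b (0.18) did not, and the calls of this list in ML and shMaf1 cells were kept. The higher call of Ppargc1a in shMaf1 cells could not be lost, since that scaling raises all ratios there. Ppargc1a, a coactivator of mitochondrial genes, was at 10.5 CPM in shMaf1, 5.67 in shBrf1, 14.96 in ML and 3.34 in control cells at day 2 and at 25.8 CPM in shMaf1, 19.3 in shBrf1, 14.5 in ML and 12.9 in control cells at day 0. Its highest libraries were those of shMaf1 and shBrf1 at day 0, and at day 2 it was 4.48-fold higher (interval 3.59 to 5.64) in ML and 3.15-fold higher (interval 2.51 to 4.0) in shMaf1 than in control cells. Klf15, a factor known to activate genes of branched-chain breakdown in muscle, was at 0.374 CPM in shMaf1, 4.32 in shBrf1, 4.2 in ML and 1.25 in control cells at day 2 and at most 0.115 CPM at day 0. Of 5 branched-chain amino acid transporters, of which Slc7a8 was under the mean of 1 CPM, Slc7a5 was 1.79-fold higher (interval 1.69 to 1.89) in shMaf1 and Slc43a2 2.32-fold higher (interval 2.1 to 2.56) in ML than in control cells of day 2, and none passed in shBrf1 cells.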

How the data were processed

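RNA of 8 libraries of 3T3-L1 cells, 1 per condition and day, was sequenced after poly(A) selection with a stranded mRNA kit, per the labels' protocols. Reads were aligned with STAR 2.4 to mm10, per the submitters' processing notes. The authors deposited estimated counts for each gene, as whole numbers without normalization, with their own log2 fold changes. How reads shared between genes, pseudogenes or strands were counted is not given in the sources used here, so genes with near-identical copies are uncertain. Per the file headers, the quality tables give a 3′ bias score, the percent of ribosomal reads, the percent of mapped reads that fit more than 1 gene or isoform (44.35% to 49.98%) and the count of reads on ERCC spike-ins (236550 to 474958).

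Counts were scaled with TMM factors of edgeR 4.0.16 (R 4.3.3) to CPM. Log2 ratios used a pseudocount of 0.5 CPM, so a fold change is on the log2(value + pseudocount) scale in calls and medians, while printed folds are plain ratios of CPM. A gene was called at 1.5-fold or more with at least 1 CPM in the higher library. Intervals are conditional exact (Clopper-Pearson) 95% intervals from the counts. They cover counting error only, and since no group had a second library, no p-value was computed. The background was the 12137 of 31252 genes with a mean of 1 CPM or more. Other scripts used Python 3.11.15 with pandas 2.3.3, numpy 2.4.6, scipy 1.17.1, statsmodels 0.14.6 and matplotlib 3.10.9, and the ratio step was tested on simulated data. Per-kilobase levels used the transcript lengths of GENCODE vM21. Gene positions are those of the deposited tables, converted to count from 1. As alternatives, scaling used size factors of DESeq2 1.42.0, totals of the libraries or spike-in reads, and the other settings were pseudocounts of 1 and 0.1 CPM, other floors, a 2-fold size, removal of a trend with gene length and the authors' deposited log2 fold changes.

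The members and lists were chosen with earlier results of these data known. The NRF1 motif was shortened to its inner letters after a longer form had been searched. Members past 2-fold in any comparison, the highest and lowest of each comparison and their isozyme or subunit partners are given in all libraries. Of the pathway lists, at most 4 genes past 1.5-fold are named in a comparison, mainly against control of day 2, and not every gene past that size is named. One such result is not reported here.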

Additional observations from a re-analysis of the deposited data

Results flagged for a closer look

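With TMM scaling, 3 cases met a rule for opposite signs of the difference from control at day 2 and day 0. In each case 1 ratio was past 1.5-fold and both counting intervals were clear of no change, in 1 library each. Other members changed sign without meeting this rule. In shMaf1 cells, 27 of the 36 members lay above control at day 0 and 27 below it at day 2. Idh2 there was at 247 CPM against 193 in control cells at day 0, and at 394 against 552 at day 2. Idh2 in shBrf1 cells had a log2 ratio to control of -0.88 at day 2 and 0.16 at day 0. Pdhx in shBrf1 cells had a log2 ratio to control of 0.79 at day 2 and -0.16 at day 0. Bcat2 in shMaf1 cells had a log2 ratio to control of -0.82 at day 2 and 0.12 at day 0. Bcat2 also took opposite signs over time, with a log2 ratio of day 2 to day 0 of -0.18 in shMaf1 cells and 0.76 in control cells. These differences were not tested, since each group held 1 library, and the ratios of day 0 were under 1.5-fold.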

How the results depend on the processing

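No paired analysis was possible because each group held 1 library, and for the same reason no library could be left out. Of 28 calls against control and 80 of day 2 against day 0, none turned to the opposite call in any alternative. DESeq2 size factors kept 28 and 78, pseudocounts of 1 and 0.1 CPM kept 28 and at least 79, other floors kept 28 and 80, and removal of the length trend kept 25 and 72. The authors' deposited log2 fold changes kept all 28 against control. Library totals kept 25 and 60, spike-in scaling kept 9 and 9, and the 2-fold size kept 7 and 43. Among the calls against control kept by spike-in scaling, the lower calls of Idh2 in shBrf1 and ML cells could not be lost.

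With library totals, 2 members were lower in shBrf1 and 1 was higher in ML cells against control of day 2. Day 2 over day 0, 3 were then higher and 1 lower in shMaf1, 1 was lower in ML, and 12 were higher in control cells. With the length trend removed, 2 were lower in shBrf1 than in control cells of day 2. At 2-fold against control of day 2, 2 were lower in shMaf1, 4 higher and 0 lower in shBrf1, and 1 higher and 0 lower in ML cells. Day 2 over day 0 at 2-fold, 2 were higher in shMaf1, 14 in ML and 7 in control cells. With spike-in scaling, 2 were lower in shMaf1 cells of day 0 against control. At day 2 against control, 1 was then higher and 8 lower in shBrf1, and 0 higher and 6 lower in ML cells. Day 2 over day 0, 2 were higher and 3 lower in shMaf1, 2 and 10 in shBrf1, 2 and 11 in ML, and 3 and 4 in control cells. That scaling shifts all genes of a library together. Under it, the median log2 ratio of the background genes to control was -0.16 in shMaf1 cells of day 0. At day 2 it was -0.65 in shBrf1 and -0.58 in ML cells, against -0.17 and -0.30 for the members. Over time it was -0.30 in shMaf1, -1.17 in shBrf1, -1.22 in ML and -0.61 in control cells. Background shares called with library totals, spike-in scaling or the length trend removed are not given here. The counts under these settings thus cannot show whether members differed from other genes.

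In shBrf1 over control at day 2, log2 ratios turned to -0.0197 for Mdh2, -0.0767 for Glud1 and -0.0077 for Hibadh. In shBrf1 cells over time, they turned to -0.0783 for Pdha1, -0.31 for Cs, -0.44 for Idh3g, -0.10 for Ogdh, -0.21 for Dlst, -0.0106 for Suclg1, -0.38 for Sucla2, -0.52 for Ivd, -0.27 for Auh and -0.53 for Mut. In control cells over time, they turned to -0.0817 for Dlat, -0.0439 for Idh3g, -0.0038 for Bckdhb, -0.0483 for Dbt and -0.0389 for Pcca. In ML cells over time, they turned to -0.35 for Pdha1, -0.14 for Pdhb, -0.42 for Dlat, -0.27 for Dld, -0.30 for Pdhx, -0.31 for Cs, -0.28 for Aco1, -0.47 for Idh2, -0.42 for Idh3g, -0.0026 for Ogdh, -0.35 for Dlst, -0.54 for Suclg1, -0.35 for Fh1, -0.25 for Mdh1, -0.39 for Dbt, -0.53 for Ivd and -0.12 for Hibch.

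In libraries of at least 29035505 counts, the counting intervals give the precision that depth allows, and the spread between cultures is unknown.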
